A study of Bos taurus with 8 samples.

Results

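MDM2, GADD45A, BAX, DIABLO, CASP6, CASP8 and CASP9 are genes of the p53 and apoptosis pathways, chosen by symbol, and all 7 were found among the 21258 features of the deposited tables. RNA had been sequenced from Holstein cattle embryos at the eight-cell stage, in pools of 8 embryos. There were 2 libraries of cloned embryos overexpressing KDM4E (KDM4E-SCNT), 3 libraries of embryos from in vitro fertilisation (IVF) and 3 libraries of cloned embryos without the overexpression (SCNT). Both cloned groups were made by somatic cell nuclear transfer, in which the nucleus of a body cell replaces that of an egg, and KDM4E is an enzyme that removes methyl groups from histone H3. The study set both other groups against SCNT. The labels leave out the donor cells, how KDM4E was overexpressed, the collection time and whether replicate pools were made on separate occasions, so the p-values measure only the spread between these pools, which may be technical.

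p53 is a transcription factor that is stabilised when DNA is damaged or cells are stressed, and its targets halt the cell cycle, repair DNA or start cell death. In the mitochondrial route to death, BAX and its relatives open the outer mitochondrial membrane. Cytochrome c then leaves the mitochondria and assembles with APAF1 and CASP9, while DIABLO, released alongside it, blocks the inhibitor of apoptosis proteins. In the other route, death receptors at the cell surface activate CASP8, and both routes end in the executioner caspases, CASP6 among them. The early cattle embryo starts on RNA that the egg stored, and the major activation of its own genome falls around the eight-cell stage, so an RNA level here mixes stored and new transcripts.

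The values are FPKM, fragment numbers scaled to transcript length and library size, as the authors deposited them. They hold no read counts, so the depth is unknown. Between 10975 and 13050 features per library reached 1 FPKM. Transcripts encoded by mitochondria took 11.04% and 11.47% of all FPKM in the KDM4E-SCNT libraries, 6.08% to 7.1% in the IVF libraries and 7.54% to 10.57% in the SCNT libraries. LOC524768, the feature taken here as KDM4E although its description likens it to KDM4C, had 101.85 and 206.44 FPKM in KDM4E-SCNT, 88.34 to 109.12 FPKM in IVF and 25.44 to 33.93 FPKM in SCNT. Its IVF values overlap those of the overexpressing clones, and the files do not show whether the reads came from the introduced or the cattle's own gene. All 12 oocyte marker genes were called higher in KDM4E-SCNT than in SCNT and in IVF than in SCNT, and BTG4, BMP15 and ZP4 were the most abundant of them. Their summed FPKM was 17612 and 20985 in KDM4E-SCNT, 23139 to 29479 in IVF and 3680 to 8270 in SCNT. The 15 fibroblast markers in the files summed to 97.67 and 384.82 FPKM in KDM4E-SCNT, 32.07 to 54.43 FPKM in IVF and 108.32 to 176.2 FPKM in SCNT, and the fibroblast gene PDGFRB was listed at 0 in 6 of the 8 libraries. LGALS1, SPARC and LUM were the most abundant fibroblast markers. Of 12 fibroblast markers tested, 2 were called higher and 0 lower in KDM4E-SCNT, and 1 higher and 4 lower in IVF, against SCNT. The 2 called higher in KDM4E-SCNT, named after their values were seen, were VIM and S100A4. Markers of cumulus and granulosa cells (HAS2, STAR and SERPINE2 the most abundant) summed to 73.52 and 124.15 FPKM in KDM4E-SCNT, 120.32 to 211.35 FPKM in IVF and 30.73 to 39.5 FPKM in SCNT. Those of sperm (LDHC, CRISP2, ODF2) summed to 52.78 and 59.93 FPKM in KDM4E-SCNT, 74.01 to 96.18 FPKM in IVF and 26.22 to 44.79 FPKM in SCNT. LDHC made up most of the sperm sum in KDM4E-SCNT and IVF. Of 8 sperm markers tested, 3 were called higher and 1 lower in IVF, and 2 higher and 1 lower in KDM4E-SCNT, against SCNT. The 1 called lower was CRISP2 in both (-3.09 in IVF and -2.55 in KDM4E-SCNT). Those of blood (HBA, CD3E, PTPRC) summed to 28.28 and 44.73 FPKM in KDM4E-SCNT, 12.92 to 20.77 FPKM in IVF and 37.67 to 75.34 FPKM in SCNT. HBA made up most of the blood sum in both cloned groups. Of 6 blood markers tested, 3 (PTPRC, CD3E and CD14) were called higher and 1 (HBA) lower in IVF than in SCNT. None was called in KDM4E-SCNT against SCNT. Oocyte marker levels thus moved with the groups in each comparison with SCNT, and their part in the results was not tested. Every pool held 8 embryos of 8 cells, so the oocyte markers do not count oocytes. For markers of the other cell types, fewer cells of a type and less RNA per cell cannot be told apart.

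Values were tested as log2(FPKM + 1) with limma in 1 fit of all 8 libraries, and a gene was called at a Benjamini-Hochberg adjusted p under 0.05 over the 14839 features with at least 1 FPKM in at least 2 libraries. Folds and log2 differences are taken after adding 1 to the FPKM and so understate changes at low levels, and an error after ± is a standard error for a log2 difference and a standard deviation for a mean. Against SCNT, 4 of the 7 genes were called in KDM4E-SCNT, where 32.6% of all features were called, and 5 of the 7 in IVF, where 58.5% were. Between KDM4E-SCNT and IVF 2 of the 7 were called, beside 6.52% of all features. Groups did not overlap for 5 of the 7 genes in KDM4E-SCNT against SCNT (59.5% of all features), for 6 in IVF against SCNT (64.4%) and for 2 in KDM4E-SCNT against IVF (33.9%). The comparisons with SCNT share the SCNT libraries, so they are not independent of each other. All 7 genes passed the filter on low values. MDM2, GADD45A, DIABLO and CASP6 passed with at least 1 FPKM in all 8 libraries, BAX through KDM4E-SCNT and IVF libraries alone, CASP8 through 1 KDM4E-SCNT and 1 IVF library, and CASP9 through 1 KDM4E-SCNT and 2 SCNT libraries.

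**Figure D1:**
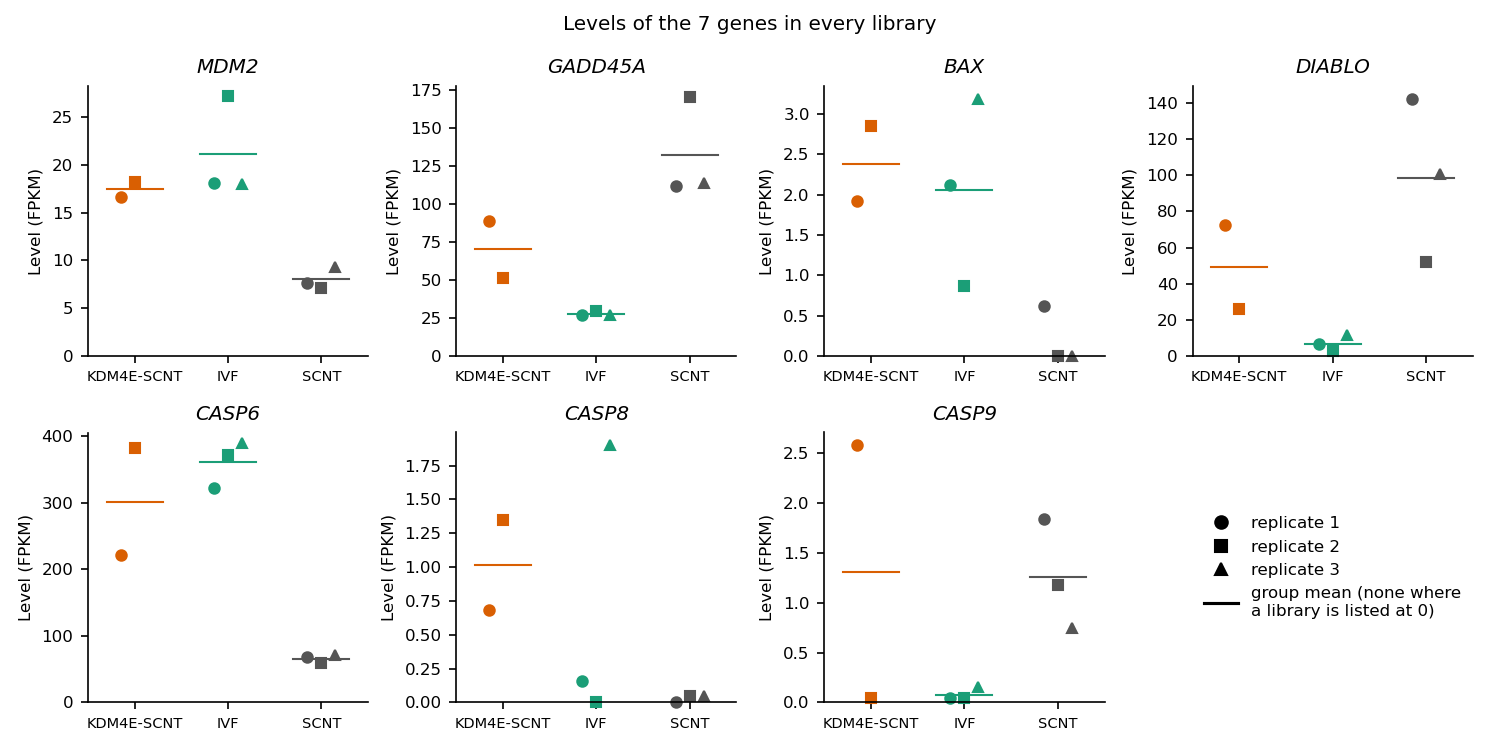
FPKM of the 7 genes (vertical axes, each with its own linear scale from 0) in every library of KDM4E-SCNT, IVF and SCNT embryos; symbols mark replicates and lines group means, left out where a library is listed at 0. MDM2 and CASP6 were lowest in the 3 SCNT libraries, GADD45A and DIABLO were lowest in the 3 IVF libraries, and BAX, CASP8 and CASP9 stayed under 4 FPKM throughout.

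The middle value of all features was itself above 0 in both comparisons with SCNT, 0.325 on the log2 scale for KDM4E-SCNT and 0.39 for IVF, and -0.03 for KDM4E-SCNT against IVF. With libraries scaled by the median ratio to a common reference, these medians were 0.02, 0.10 and -0.04. Measured from the median of all features, the difference of KDM4E-SCNT from SCNT was 0.71 for MDM2, -1.25 for GADD45A, 1.19 for BAX, -1.37 for DIABLO and 1.80 for CASP6. The difference of IVF from SCNT, measured in the same way, was 0.88 for MDM2, -2.58 for GADD45A, 0.91 for BAX, -4.13 for DIABLO and 2.04 for CASP6. The signs of these 5 genes were thus the same with and without the shift. Of all features, 3208 were called higher and 1636 lower in KDM4E-SCNT than in SCNT, a split that was 2099 to 2763 after median-ratio scaling, 2365 to 2431 after upper-quartile scaling and 2092 to 2108 after quantile normalization. For IVF against SCNT the split was 5182 higher to 3498 lower, and 4142 to 4337 after median-ratio scaling.

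MDM2 (ENSBTAG00000010422.5) encodes the ubiquitin ligase that marks p53 for destruction and is itself switched on by p53, which makes it the feedback arm of the pathway. It lies on chromosome 5 at 45178135-45203567 of the UMD3.1 build. MDM2 was 16.69 and 18.27 FPKM in the KDM4E-SCNT libraries, 18.07, 27.28 and 18.05 FPKM in the IVF libraries, and 7.6, 7.16 and 9.34 FPKM in the SCNT libraries. Every SCNT library was below every library of the other groups. MDM2 was higher in IVF than in SCNT by 1.27 ± 0.30 on the log2 scale (limma, adjusted p = 0.00305), with means of 21.1 ± 5.32 FPKM and 8.03 ± 1.15 FPKM (n = 3 each), and kept that call under all 20 alternative settings. It was also called higher in KDM4E-SCNT than in SCNT, by 1.04 ± 0.34 (limma, adjusted p = 0.0330). That call was lost under 9 of the 20 alternatives, among them median-ratio scaling (0.60, adjusted p = 0.193). Without SCNT replicate 1, 2 or 3 the adjusted p was 0.0826, 0.0724 and 0.0564, and without KDM4E-SCNT replicate 1 or 2 it was 0.0716 and 0.151. KDM4E-SCNT and IVF overlapped, with a difference of -0.24 (95% interval -0.97 to 0.50).

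GADD45A (ENSBTAG00000013860.3, chromosome 3 at 77972153-77975265) is a stress-response gene that p53 switches on in mammalian cells and whose protein takes part in growth arrest and DNA repair. Its level ran the other way to that of MDM2. GADD45A was 88.78 and 51.61 FPKM in KDM4E-SCNT, 26.74, 29.72 and 27.17 FPKM in IVF, and 111.96, 170.76 and 114.16 FPKM in SCNT. The 3 groups did not overlap, with KDM4E-SCNT between the other two. IVF averaged 27.9 ± 1.61 FPKM and SCNT 132 ± 33.3 FPKM (n = 3 each), a log2 difference of -2.18 ± 0.30 (limma, adjusted p = 6.32e-05) that was called under all 20 alternatives. In KDM4E-SCNT GADD45A was called lower than in SCNT, by -0.93 ± 0.33 (limma, adjusted p = 0.0484), and higher than in IVF, by 1.25 ± 0.33 (limma, adjusted p = 0.0417).

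Both of these GADD45A calls lay close to the threshold, and each was lost under 14 of 20 alternatives. Against SCNT, the difference was -0.54 when KDM4E-SCNT replicate 2 was left out (adjusted p = 0.356), and the adjusted p was 0.0560 and 0.0704 without IVF replicate 1 or 3 and 0.0710, 0.137 and 0.0819 without SCNT replicate 1, 2 or 3. Against IVF, GADD45A was 0.87 higher when KDM4E-SCNT replicate 1 was left out (adjusted p = 0.422), and the adjusted p was 0.10, 0.0599 and 0.113 without IVF replicate 1, 2 or 3 and 0.0596 and 0.0716 without SCNT replicate 1 or 3. Among the tested features of a library, GADD45A stood at the 91.7th and 86.9th percentile in KDM4E-SCNT, the 79.4th to 81.1st in IVF and the 92.7th to 95.1st in SCNT.

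BAX (ENSBTAG00000013340.5, chromosome 18 at 55985202-55989378), the pore-forming member of the BCL2 family and a p53 target, was scarce in all groups. It was 1.92 and 2.85 FPKM in KDM4E-SCNT, and 2.12, 0.87 and 3.19 FPKM in IVF. In SCNT it was 0.62 FPKM in replicate 1 and listed at 0 in replicates 2 and 3. All 5 KDM4E-SCNT and IVF libraries were above the 3 SCNT libraries. BAX was called higher than in SCNT in both KDM4E-SCNT, by 1.51 ± 0.45 (limma, adjusted p = 0.0222), and IVF, by 1.31 ± 0.40 (limma, adjusted p = 0.0141), and the libraries of KDM4E-SCNT and IVF overlapped (difference 0.21, 95% interval -0.76 to 1.18). BAX passed the filter on low values through KDM4E-SCNT and IVF libraries alone, so its calls against SCNT are not independent of the filter. A listed 0 may be a failed estimate, since 2 mitochondrial features were listed at 0 in some libraries. BAX was not called in KDM4E-SCNT without replicate 2 of that group (adjusted p = 0.147) or without SCNT replicate 2 or 3 (0.0593 and 0.0720), nor in IVF without IVF replicate 3 (0.0665) or SCNT replicate 3 (0.0543).

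DIABLO (ENSBTAG00000004199.3, chromosome 17 at 55400571-55418222), also known as SMAC, is the mitochondrial protein that frees caspases from their inhibitors once it reaches the cytosol. Of the 7 genes it had the largest fitted difference. DIABLO was 72.47 and 25.85 FPKM in KDM4E-SCNT, 6.55, 2.56 and 11.31 FPKM in IVF, and 142.41, 52.04 and 100.7 FPKM in SCNT. The IVF libraries were the lowest, and the KDM4E-SCNT libraries overlapped the SCNT range while lying above all IVF libraries. In IVF it averaged 6.81 ± 4.38 FPKM and in SCNT 98.4 ± 45.2 FPKM (n = 3 each), a log2 difference of -3.73 ± 0.51 or 13.3-fold lower in IVF (limma, adjusted p = 6.45e-05), which was called under all 20 alternatives.

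DIABLO was called 2.68 ± 0.57 higher in KDM4E-SCNT than in IVF, or 6.42-fold (limma, adjusted p = 0.0126). Without KDM4E-SCNT replicate 1 this difference was 1.96 (adjusted p = 0.242). Between KDM4E-SCNT and SCNT the DIABLO difference of -1.05 was not called (limma, adjusted p = 0.174), and its 95% interval ran from -2.28 to 0.19. It was -1.77 without KDM4E-SCNT replicate 1 and -0.32 without replicate 2. Its percentile among tested features was 90.4 and 77.9 in the KDM4E-SCNT libraries, 37.7 to 65.9 in the IVF libraries and 88.2 to 93.9 in the SCNT libraries.

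CASP6 (ENSBTAG00000012537.4, chromosome 6 at 16847111-16867961) is the executioner caspase known for cutting nuclear lamins, and it was the most abundant of the 7 genes in all 5 KDM4E-SCNT and IVF libraries. CASP6 was 221.63 and 382.68 FPKM in KDM4E-SCNT, 322.95, 371.5 and 389.39 FPKM in IVF, and 68.89, 58.57 and 70.61 FPKM in SCNT. The lowest KDM4E-SCNT library was above the highest SCNT library, and KDM4E-SCNT overlapped IVF. CASP6 was 5.41-fold higher in IVF than in SCNT, a log2 difference of 2.43 ± 0.27 (limma, adjusted p = 1.41e-05), with means of 361 ± 34.4 FPKM and 66.0 ± 6.51 FPKM (n = 3 each). In KDM4E-SCNT it exceeded the SCNT level 4.37-fold, a log2 difference of 2.13 ± 0.30 (limma, adjusted p = 0.000882). Both CASP6 calls held under all 20 alternatives. Between KDM4E-SCNT and IVF its difference was -0.31, with a 95% interval of -0.96 to 0.35. Its percentile was 96.6 and 98.2 in KDM4E-SCNT, 98 to 98.5 in IVF and 89.3 to 89.5 in SCNT.

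The initiator caspases CASP8 and CASP9 were scarce, at no more than 1.9 and 2.58 FPKM in any library. CASP8 (ENSBTAG00000015718.4, chromosome 2 at 90278155-90301820), the initiator of the death receptor route, was 0.68 and 1.35 FPKM in KDM4E-SCNT. It was 0.16 and 1.9 FPKM in IVF replicates 1 and 3 and listed at 0 in IVF replicate 2, and in SCNT it was listed at 0 in replicate 1 and was 0.05 FPKM in replicates 2 and 3. Both KDM4E-SCNT libraries were above all SCNT libraries, and IVF overlapped both other groups. CASP8 was not called in KDM4E-SCNT against SCNT (difference 0.94, 95% interval -0.10 to 1.98; limma, adjusted p = 0.146) or in IVF against SCNT (0.54, -0.39 to 1.47; limma, adjusted p = 0.298), nor in KDM4E-SCNT against IVF (0.41, -0.63 to 1.45).

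CASP9 (ENSBTAG00000002472.5, chromosome 16 at 53250584-53273042), the initiator that APAF1 and cytochrome c activate, was 2.58 and 0.04 FPKM in KDM4E-SCNT, 0.04, 0.04 and 0.15 FPKM in IVF, and 1.84, 1.18 and 0.75 FPKM in SCNT. KDM4E-SCNT replicate 1 was thus the highest of the 8 libraries, replicate 2 was level with the lowest IVF libraries, and every IVF library was below every SCNT library. CASP9 was not called in IVF against SCNT (-1.04, 95% interval -2.01 to -0.07; limma, adjusted p = 0.0620), but it was called under 8 of 19 alternatives, among them the fit without either KDM4E-SCNT library (adjusted p = 0.0216 without replicate 1 and also without replicate 2). In KDM4E-SCNT against SCNT the difference was -0.20 (-1.28 to 0.89), and without KDM4E-SCNT replicate 2 it was 0.69. In KDM4E-SCNT against IVF the CASP9 difference of 0.84 was not called, whereas without KDM4E-SCNT replicate 2 it was 1.74 (adjusted p = 0.0483) and without replicate 1 it was -0.05.

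**Figure D2:**
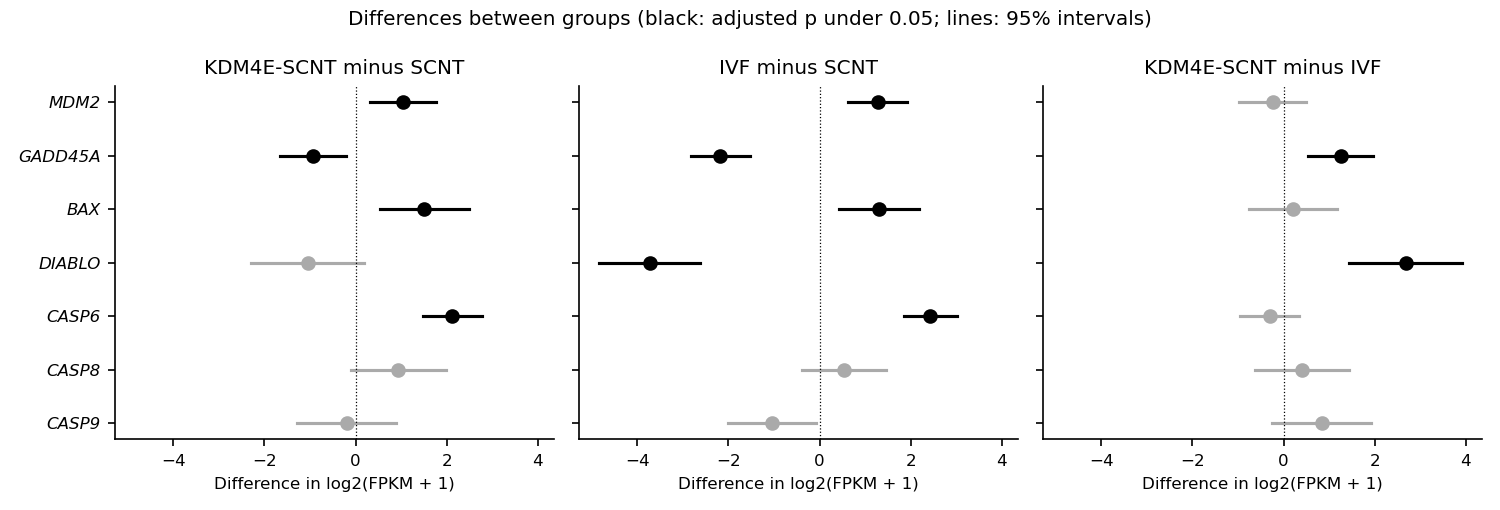
Difference of group means in log2(FPKM + 1) on the horizontal axis for each of the 7 genes, with KDM4E-SCNT minus SCNT on the left, IVF minus SCNT in the middle and KDM4E-SCNT minus IVF on the right; lines are 95% intervals and black marks an adjusted p under 0.05. MDM2, BAX and CASP6 lay right of 0 in both comparisons with SCNT and were not called between KDM4E-SCNT and IVF, whereas GADD45A and DIABLO were called higher in KDM4E-SCNT than in IVF.

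The levels of the 7 genes were then set beside those of 78 other tested genes of the same pathways, in 9 lists by role. In IVF, 32 of the 78 were called higher than in SCNT (41%, against 34.9% of all features) and 25 lower (32.1%, against 23.6%). In KDM4E-SCNT, 18 were called higher than in SCNT (23.1%, against 21.6% of all features) and 15 lower (19.2%, against 11%). Their median difference was 0.41 in IVF and 0.22 in KDM4E-SCNT against SCNT, beside 0.39 and 0.325 over all features. Together with the 7 genes, 21 of 85 were called higher and 16 lower in KDM4E-SCNT than in SCNT, and without KDM4E-SCNT replicate 2 these counts were 5 and 3. Without SCNT replicate 1 they were 13 and 10, and without SCNT replicate 3 they were 11 and 10.

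The genes of the p53 regulator list moved in both directions. Of 17 tested, 4 were called higher in IVF than in SCNT (23.5%, against 34.9% of all features) and 9 lower (52.9%, against 23.6%). Their median was -1.03, beside 0.39 over all features. In KDM4E-SCNT, 2 were called higher than in SCNT (11.8%, against 21.6% of all features) and 5 lower (29.4%, against 11%). The median there was -0.48, beside 0.325 over all features. SIRT1, a deacetylase that acts on p53, had 32.81 and 18.23 FPKM in KDM4E-SCNT, 5.68, 5.42 and 6.03 FPKM in IVF and 66.54, 51.8 and 63.06 FPKM in SCNT. SIRT1 was called lower in IVF (-3.19) and in KDM4E-SCNT (-1.26) than in SCNT and higher in KDM4E-SCNT than in IVF (1.93, limma, adjusted p = 0.00426). Its call in KDM4E-SCNT against SCNT was lost without SCNT replicate 1 or KDM4E-SCNT replicate 2, and its call against IVF without KDM4E-SCNT replicate 1.

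CHEK2 and ATR, kinases that signal DNA damage towards p53, were both called lower than in SCNT in IVF (-2.64 and -1.66) and in KDM4E-SCNT (-1.47 and -1.58). CHEK2 had 4.67 and 4.7 FPKM in KDM4E-SCNT, 1.39 to 1.78 FPKM in IVF and 11.41 to 17.14 FPKM in SCNT. The KDM4E-SCNT call of CHEK2 was lost without KDM4E-SCNT replicate 2 (adjusted p = 0.0566), and that of ATR without KDM4E-SCNT replicate 1 (adjusted p = 0.0732). RPL5, a ribosomal protein that also binds MDM2, had 388.86 and 411.97 FPKM in KDM4E-SCNT, 185.78 to 333.12 FPKM in IVF and 832.3 to 1273.44 FPKM in SCNT and was called lower in both, but ribosomal protein genes have many near-identical copies that can share reads, so its level is uncertain. MDM4, the partner of MDM2 and picked after its values were seen, had 85.16 and 98.38 FPKM in KDM4E-SCNT, 78.61 to 122.32 FPKM in IVF and 51.85 to 57.6 FPKM in SCNT. Its call in IVF (0.81 ± 0.27, limma, adjusted p = 0.0194) was lost under 6 of 20 alternatives, among them without IVF replicate 2 or 3 or SCNT replicate 2 or 3.

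Of all features, 34.9% were called higher and 23.6% lower in IVF than in SCNT, with a median difference of 0.39. In KDM4E-SCNT these shares were 21.6% and 11%, with a median of 0.325. Among 24 tested p53 target genes, MDM2, GADD45A and BAX included, 15 were called higher and 5 lower in IVF than in SCNT, and the median difference was 1.28. The shares of these targets were 62.5% and 20.8% in IVF, and 33.3% and 16.7% in KDM4E-SCNT. In KDM4E-SCNT 8 were called higher and 4 lower than in SCNT, with a median of 0.61, and without KDM4E-SCNT replicate 2 these counts were 1 and 0. Without KDM4E-SCNT replicate 1 they were 5 and 3, without SCNT replicate 1, 2 or 3 they were 5 and 1, 5 and 3, and 4 and 1, and without IVF replicate 1 or 3 they were 8 and 2, and 7 and 2. ZMAT3, an RNA-binding protein that p53 induces, had 4.73 and 9.14 FPKM in KDM4E-SCNT, 11.74, 15.39 and 9.52 FPKM in IVF and 0.64, 0.95 and 0.78 FPKM in SCNT. It rose by 2.86 in IVF and by 2.09 in KDM4E-SCNT, and both calls held under all 20 alternatives. TP53INP1, which promotes p53-dependent death, had 39.78 and 51.49 FPKM in KDM4E-SCNT, 46.24 to 58.56 FPKM in IVF and 13.95 to 17.24 FPKM in SCNT. CCNG1, a cyclin induced by p53, had 233.44 and 254.81 FPKM in KDM4E-SCNT, 320.74 to 582.89 FPKM in IVF and 109.27 to 141.46 FPKM in SCNT. Both rose in IVF (1.61 and 1.82) and in KDM4E-SCNT (1.46 and 0.99), where TP53INP1 lost its call without KDM4E-SCNT replicate 2, and CCNG1 without either KDM4E-SCNT library or SCNT replicate 1 or 2.

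PLK2, a kinase that p53 induces, had 26.82 and 42.3 FPKM in KDM4E-SCNT, 58 to 117.69 FPKM in IVF and 15.32 to 19.48 FPKM in SCNT. It rose in IVF by 2.10 and was not called in KDM4E-SCNT (0.88, limma, adjusted p = 0.0795). CDKN1A, the cell cycle inhibitor best known as a p53 target, had 1.42 and 2.97 FPKM in KDM4E-SCNT, 0.48 to 4.67 FPKM in IVF and 0.73 to 2.81 FPKM in SCNT, so its groups overlapped throughout. It was named after its values were seen.

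The GADD45 family was split. GADD45G had 1.76 and 0.95 FPKM in KDM4E-SCNT, 0.52 to 1.34 FPKM in IVF and 5.44 to 11.92 FPKM in SCNT, and like GADD45A it was called lower than in SCNT in IVF (-2.33 ± 0.38, limma, adjusted p = 0.000213) and in KDM4E-SCNT (-1.98 ± 0.42, limma, adjusted p = 0.00476; 0.0560 without KDM4E-SCNT replicate 2). GADD45B, named after its values were seen, had 14.82 and 13.97 FPKM in KDM4E-SCNT, 22.42 to 36.23 FPKM in IVF and 6.49 to 18.51 FPKM in SCNT. It was called higher in IVF than in SCNT (1.46 ± 0.38, limma, adjusted p = 0.00494). The ratio of GADD45A to GADD45B was 5.99 and 3.69 in the KDM4E-SCNT libraries, 0.75 to 1.33 in the IVF libraries and 6.05 to 20.4 in the SCNT libraries, a description chosen after the values were seen.

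**Figure D3:**
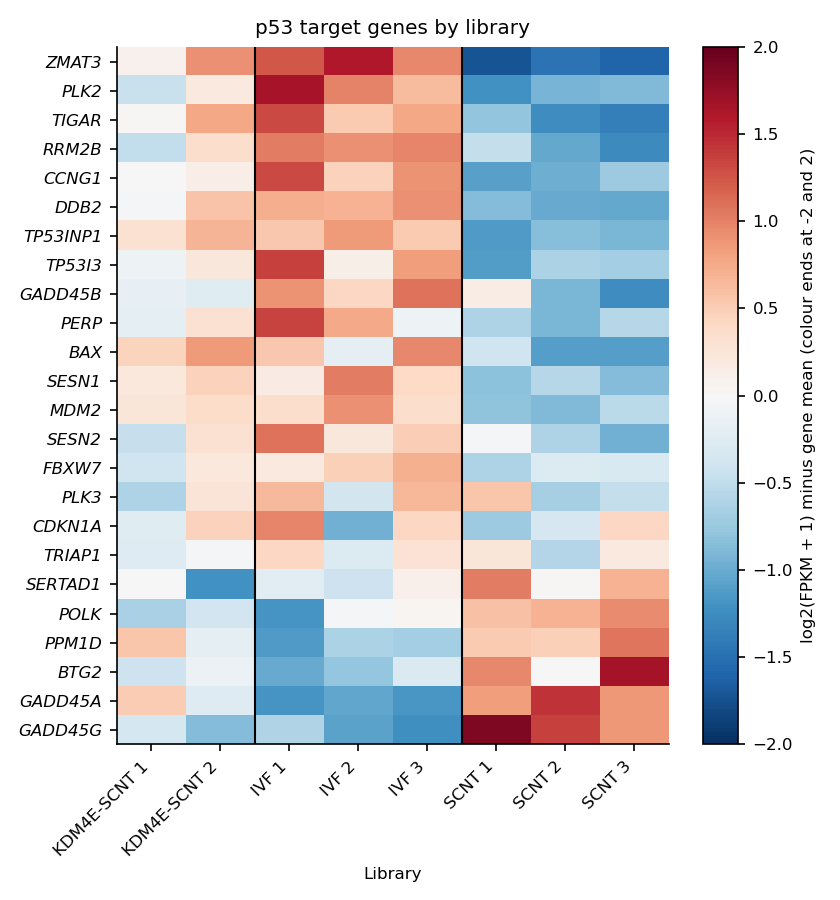
Heat map of the 24 tested p53 target genes (rows) in the KDM4E-SCNT, IVF and SCNT libraries (columns, left to right), coloured by log2(FPKM + 1) minus the gene's mean over the 8 libraries, with the colour scale ending at -2 and 2. ZMAT3, CCNG1, TP53INP1 and MDM2 were below their mean in all 3 SCNT libraries, and GADD45A and GADD45G were above it there.

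Of the other pro-apoptotic BCL2 relatives tested, BID and BAD, which relay death signals to BAX, moved opposite to BAX. BID had 9.55 and 3.18 FPKM in KDM4E-SCNT, 2.42 to 5.07 FPKM in IVF and 20.5 to 38.71 FPKM in SCNT, and was called lower than in SCNT in IVF (-2.60) and in KDM4E-SCNT (-2.05). BAD had 19.17 and 7.26 FPKM in KDM4E-SCNT, 2.85 to 7.61 FPKM in IVF and 23.36 to 47.88 FPKM in SCNT, and was called lower in both (-2.68 and -1.36). BCL2L11, known as BIM, had 13.85 and 11.46 FPKM in KDM4E-SCNT, 1.66 to 6.09 FPKM in IVF and 9.02 to 22.31 FPKM in SCNT, and fell in IVF (-1.72, limma, adjusted p = 0.00418). BCL2L14 rose in KDM4E-SCNT (1.70) and in IVF (1.01), the second of these calls being lost under 8 of 20 alternatives, among them without IVF replicate 2 or 3 or SCNT replicate 1 or 3. Without KDM4E-SCNT replicate 2, BID, BAD and BCL2L14 lost their KDM4E-SCNT calls (adjusted p = 0.0950, 0.418 and 0.111), and BAD also lost its call without IVF replicate 3 or SCNT replicate 1 or 3.

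The pro-survival BCL2 genes moved in both directions. BCL2L10, a member known as abundant in oocytes in human and mouse, had 177.62 and 421.61 FPKM in KDM4E-SCNT, 863.76, 320.5 and 966.42 FPKM in IVF and 65.88, 70.59 and 90.63 FPKM in SCNT, and was called higher than in SCNT in IVF (3.09) and KDM4E-SCNT (1.85). MCL1, a short-lived relative that binds BIM, had 62.79 and 20.91 FPKM in KDM4E-SCNT, 15.09, 16.72 and 19.95 FPKM in IVF and 90.07, 110.91 and 110.77 FPKM in SCNT, and was called lower in IVF (-2.53) and KDM4E-SCNT (-1.48). BCL2L1 and BCL2L2 rose in IVF (1.90 and 1.53), and BCL2L2 rose in KDM4E-SCNT (1.37), while BCL2L1 was not called there (0.93, limma, adjusted p = 0.110). MCL1 made up 25.3% and 4.6% of the summed pro-survival FPKM in KDM4E-SCNT, 1.68% to 4.79% in IVF and 54.0% to 60.1% in SCNT. The KDM4E-SCNT calls of BCL2L10, MCL1 and BCL2L2 were lost without KDM4E-SCNT replicate 2 (adjusted p = 0.149, 0.217 and 0.0803), that of MCL1 also without SCNT replicate 3, and that of BCL2L2 also without KDM4E-SCNT replicate 1 or SCNT replicate 1 or 3.

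Around DIABLO, 12 genes of the apoptosome and of release from mitochondria were tested. In IVF, 6 were called higher than in SCNT (50%, against 34.9% of all features) and 3 lower (25%, against 23.6%). In KDM4E-SCNT, 4 were called higher than in SCNT (33.3%, against 21.6% of all features) and 1 lower (8.33%, against 11%). CYCS, which encodes cytochrome c, had 797.7 and 711.09 FPKM in KDM4E-SCNT, 267.85, 333.13 and 361.26 FPKM in IVF and 1960.96, 1862.23 and 1876.25 FPKM in SCNT. CYCS, like DIABLO, was called lower in IVF than in SCNT (-2.57) and higher in KDM4E-SCNT than in IVF (1.24, limma, adjusted p = 0.00945; 0.0718 without KDM4E-SCNT replicate 1), and it was also lower in KDM4E-SCNT than in SCNT (-1.33, limma, adjusted p = 0.00264). It has processed copies that can share reads, so its level is uncertain. VDAC1, a channel of the outer mitochondrial membrane, had 86.75 and 203.44 FPKM in KDM4E-SCNT, 179.01 to 233.04 FPKM in IVF and 18.68 to 25.31 FPKM in SCNT and rose by 2.52 in KDM4E-SCNT and 3.15 in IVF, under every alternative.

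PARL, a protease of the inner mitochondrial membrane, rose by 1.2 in KDM4E-SCNT, a call lost without SCNT replicate 3 or KDM4E-SCNT replicate 2, and by 2.14 in IVF. APAF1, the scaffold that activates CASP9 and another gene picked after its values were seen, had 11.03 and 15.28 FPKM in KDM4E-SCNT, 9.5 to 31.96 FPKM in IVF and 3.91 to 5.89 FPKM in SCNT. It rose in IVF (1.91, limma, adjusted p = 0.00183), and its call in KDM4E-SCNT (1.3, limma, adjusted p = 0.0486) was lost under 14 of 20 alternatives, including those without any 1 of the SCNT and KDM4E-SCNT libraries and without IVF replicate 1 or 3.

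Within the caspases, 2 of 6 tested genes were called higher than in SCNT and 1 lower, in KDM4E-SCNT as in IVF. These shares were 33.3% and 16.7%. Of all features, 21.6% were called higher and 11% lower in KDM4E-SCNT, and 34.9% and 23.6% in IVF. CASP2 rose with CASP6. CASP2, which responds to DNA damage and errors of cell division, had 19.69 and 17.03 FPKM in KDM4E-SCNT, 16.95, 16.45 and 13.46 FPKM in IVF and 6.97, 7.0 and 4.7 FPKM in SCNT, and its calls in KDM4E-SCNT (1.44 ± 0.34, limma, adjusted p = 0.00767) and IVF (1.21 ± 0.30, limma, adjusted p = 0.00420) held under all 20 alternatives.

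XIAP, the inhibitor that DIABLO displaces from caspases, moved opposite to DIABLO in IVF against SCNT. It had 22.48 and 33.19 FPKM in KDM4E-SCNT, 8.84, 26.16 and 20.07 FPKM in IVF and 6.27, 4.22 and 6.24 FPKM in SCNT, and was called higher than in SCNT in KDM4E-SCNT (2.12 ± 0.44, limma, adjusted p = 0.00408; 0.0571 without KDM4E-SCNT replicate 2) and in IVF (1.45 ± 0.39, limma, adjusted p = 0.00674). The ratio of DIABLO to XIAP, chosen after the values were seen, was 3.22 and 0.779 in KDM4E-SCNT, 0.741, 0.0979 and 0.564 in IVF and 22.7, 12.3 and 16.1 in SCNT, without overlap between SCNT and the other groups. BIRC6, a large inhibitor of apoptosis protein, fell in IVF (-2.25) and in KDM4E-SCNT (-1.41, lost without KDM4E-SCNT replicate 2), and BIRC3 fell in IVF (-1.54) and was not called in KDM4E-SCNT (-0.78, limma, adjusted p = 0.114). The ratio of MDM2 to MDM4 stayed between 0.184 and 0.230 in the KDM4E-SCNT and IVF libraries and between 0.132 and 0.164 in the SCNT libraries.

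**Figure D4:**
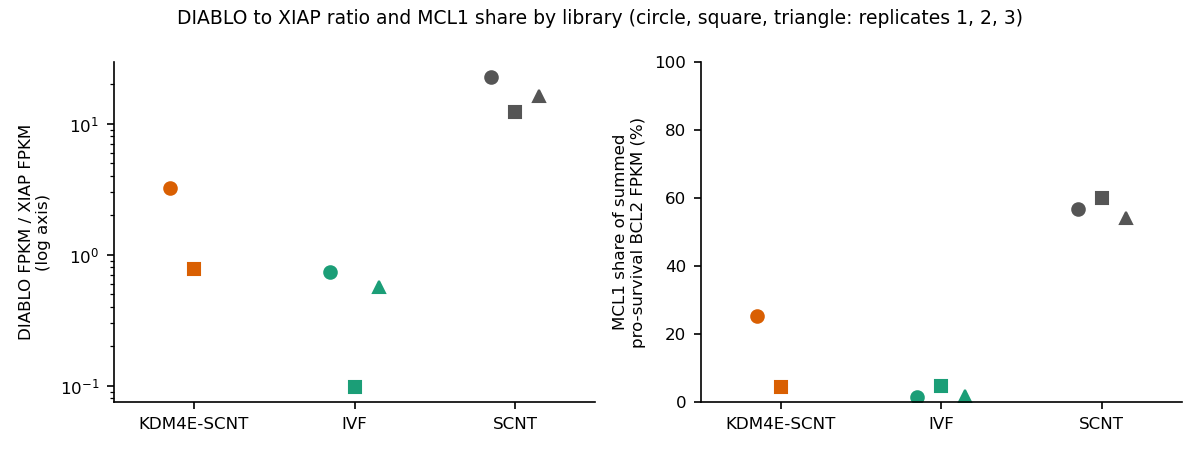
DIABLO divided by XIAP on a log axis (left) and MCL1 share of summed pro-survival BCL2 FPKM in percent (right), for each library of KDM4E-SCNT, IVF and SCNT embryos (symbols mark replicates). The SCNT libraries held the highest ratios of DIABLO to XIAP, at least 12.3, and the highest MCL1 shares, at least 54.0%.

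In the death receptor route around CASP8, 6 of the 14 listed genes in the files were tested. In each comparison with SCNT, 1 was called higher and 1 lower, or 16.7% each. Of all features, 34.9% were called higher and 23.6% lower in IVF, and 21.6% and 11% in KDM4E-SCNT. CFLAR, which encodes the FLIP protein that restrains CASP8, had 11.87 and 3.76 FPKM in KDM4E-SCNT, 4.64 to 14.86 FPKM in IVF and 1.06 to 2.11 FPKM in SCNT and rose in IVF (1.94) and in KDM4E-SCNT (1.54), the second call being lost under 9 of 20 alternatives, including those without IVF replicate 3, KDM4E-SCNT replicate 1 or any SCNT library. DAXX, which binds the receptor FAS and also acts as a histone chaperone, had 9.63 and 3.81 FPKM in KDM4E-SCNT, 3.42 to 7.17 FPKM in IVF and 14.72 to 20.57 FPKM in SCNT and fell in IVF (-1.54) and in KDM4E-SCNT (-1.37, lost without SCNT replicate 2 or 3 or KDM4E-SCNT replicate 2). FADD, the adaptor of CASP8, and RIPK1, a kinase of the receptor complex, were not called in KDM4E-SCNT or IVF against SCNT.

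Among 9 tested substrates and effectors of caspases, 3 were called higher and 3 lower in IVF than in SCNT. These were 33.3% each, against 34.9% and 23.6% of all features. In KDM4E-SCNT, 1 was called higher than in SCNT (11.1%, against 21.6% of all features) and 0 lower (against 11%). DFFA, the inhibitor that holds the apoptotic nuclease in check, had 6.14 and 3.62 FPKM in KDM4E-SCNT, 0.65, 0.22 and 1.08 FPKM in IVF and 11.46, 7.88 and 11.37 FPKM in SCNT. It fell in IVF (-2.78) and, as DIABLO and CYCS did, stood higher in KDM4E-SCNT than in IVF (1.83, limma, adjusted p = 0.0141; 0.184 without KDM4E-SCNT replicate 1), while its difference of -0.95 between KDM4E-SCNT and SCNT was not called (limma, adjusted p = 0.0835). LMNA, which encodes the lamins A and C that CASP6 cuts, had 4.56 and 2.75 FPKM in KDM4E-SCNT, 0.56 to 2.11 FPKM in IVF and 6.15 to 7.38 FPKM in SCNT, fell in IVF (-1.91) and was not called in KDM4E-SCNT (-0.79, limma, adjusted p = 0.149). SPTAN1, a spectrin of the membrane skeleton, rose in IVF (1.53) and in KDM4E-SCNT (1.40, lost without SCNT replicate 1 or 3 or KDM4E-SCNT replicate 2), and PARP1, a DNA repair enzyme, was not called in either.

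**Figure D5:**
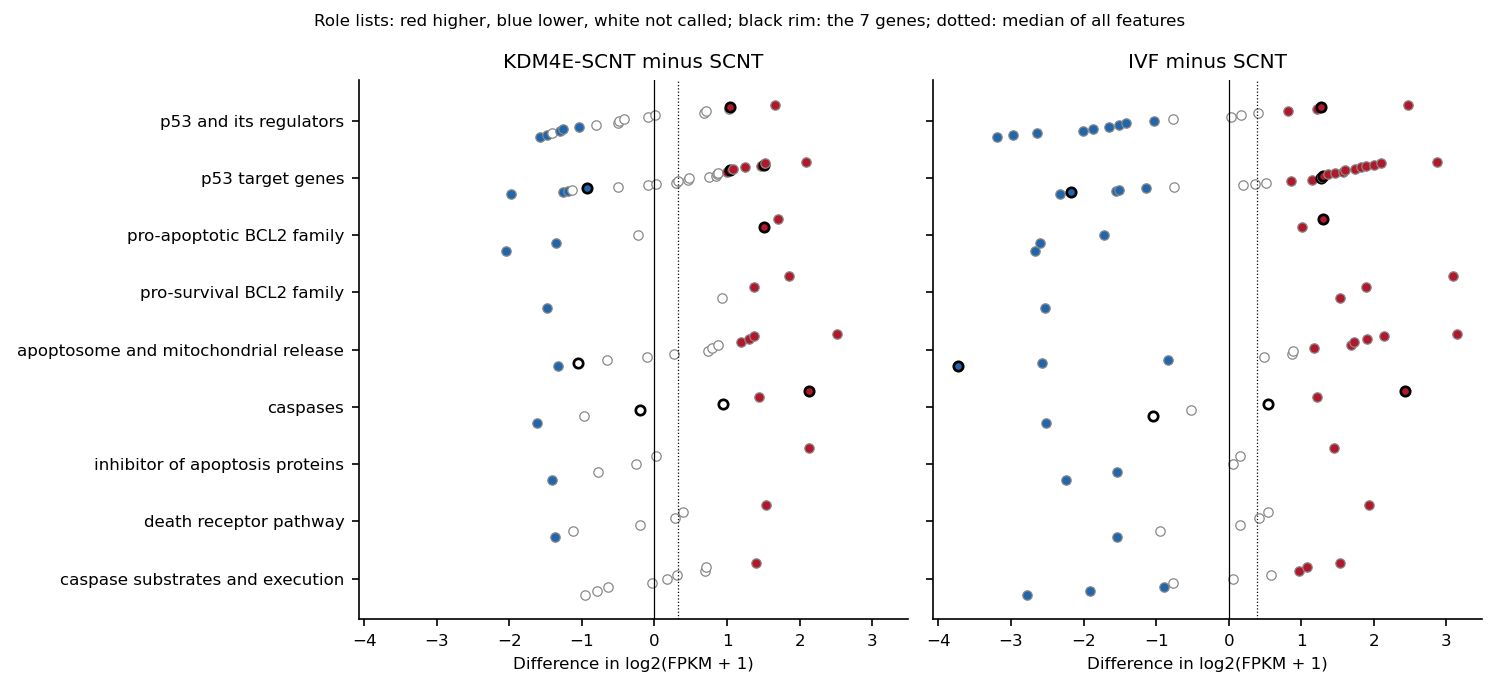
Difference in log2(FPKM + 1) of every tested gene in the 9 role lists (rows), for KDM4E-SCNT minus SCNT on the left and IVF minus SCNT on the right; red marks genes called higher, blue genes called lower, white genes not called, black rims the 7 genes, and dotted lines the median of all features (0.325 and 0.39). Most lists held genes called in each direction. Of the p53 target genes, more were called higher than lower, 15 to 5 in IVF and 8 to 4 in KDM4E-SCNT. All features split in the same direction, 5182 to 3498 in IVF and 3208 to 1636 in KDM4E-SCNT. For the targets in KDM4E-SCNT, median-ratio scaling gave 4 to 5, and fewer were called in either direction without KDM4E-SCNT replicate 2.

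In KDM4E-SCNT against IVF, 5 of the 85 pathway genes were called, all higher, beside 5.9% of all features called higher and 0.62% lower. They were GADD45A, DIABLO, SIRT1, CYCS and DFFA, and all 5 had their highest mean in SCNT. Without KDM4E-SCNT replicate 1 none of the 85 was called higher, and without KDM4E-SCNT replicate 2 there were 8.

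The p53 target count in KDM4E-SCNT depended on scaling. Of the 24 targets, 8 were called higher and 4 lower as deposited, against 4 and 5 after median-ratio scaling, 5 and 4 after upper-quartile scaling and 4 and 4 after quantile normalization. In IVF 13 targets were called higher and 6 lower than in SCNT after median-ratio scaling. Of the other named genes, CCNG1, PARL, APAF1, BCL2L2, CFLAR and SPTAN1 lost their KDM4E-SCNT calls after median-ratio scaling and RPL5 after quantile normalization, and MDM4 and BCL2L14 lost their IVF calls after median-ratio scaling.

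Finally, the features whose levels followed each of the 7 genes most closely across the 8 libraries were found. The measure was the root-mean-square difference of log2(FPKM + 1) values centred on each gene's mean. It covered about 7045 features with a symbol and a mean log2(FPKM + 1) of at least 2. MDM2 was closest to TJP1 (0.11) and CCT2 (0.11), where the median feature differed by 0.77. GADD45A was closest to SELENOK (0.15) and COX17 (0.15), against a median of 1.22. CASP6 was closest to SUCLG2 (0.13) and KPNA2 (0.14), against a median of 1.06. COX17, for example, had 187.4 and 138.6 FPKM in KDM4E-SCNT, 53.02 to 58.39 FPKM in IVF and 210.62 to 350.33 FPKM in SCNT.

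DIABLO was closest to RPL8 and PPIL1 (0.33 each, against a median of 1.95), with PPIL1 at 43.66 and 17.5 FPKM in KDM4E-SCNT, 3.04 to 6.5 FPKM in IVF and 56.37 to 101.21 FPKM in SCNT. The scarcer genes BAX, CASP8 and CASP9 had a mean log2(FPKM + 1) under the limit of 2 set for neighbours. Only more abundant features could therefore be named beside them. BAX was closest to EFTUD2 (0.17) and DHRS1 (0.21), CASP8 to TOR1AIP1 (0.28) and RAD54L2 (0.30), and CASP9 to NMNAT1 (0.17) and CCNE2 (0.19), against medians of 0.85, 0.86 and 1.01. KDM4E-SCNT replicate 2 was the lower of the KDM4E-SCNT libraries for CASP9, NMNAT1 and CCNE2 alike, with CCNE2 at 36.65 and 12.57 FPKM in KDM4E-SCNT, 12.84 to 15.67 FPKM in IVF and 24.26 to 29.85 FPKM in SCNT.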

How the data were processed

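The deposited tables, 1 per library, hold FPKM per gene to 2 decimals, as the authors made them, per the file headers. The submitters' processing notes name the tools RSEM 1.2.12, Bowtie2 2.2.5, StringTie 1.0.4 and HISAT 0.1.6, without roles, and the build UMD3.1. Depth per sample is unknown, so no counting error is given. Symbols came from the files, and for 249 features through RefSeq accessions.

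FPKM was tested as log2(FPKM + 1) in limma 3.58.1 (R 4.3.3; trend and robust moderation, group means, two-sided) after 6419 features that did not reach 1 FPKM in at least 2 libraries were set aside. The fit was also run on simulated data in which few features differed between groups, unlike these data. That run does not show how accurate the calls are here. Coordinates are those of the files. The members and role lists were chosen with earlier results of these data known. Named genes are the 7 members, up to 3 others per list with the smallest p in each comparison with SCNT, the 2 features most like each member and the 3 most abundant markers per list; exceptions are stated. For KDM4E-SCNT against IVF, list genes are given only where called. Some genes of the role lists are counted but not reported here by name.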

Additional observations from a re-analysis of the deposited data

How the results depend on the processing

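Across the 20 alternative settings (pseudocounts of 0.1 and 0.5, no filter or a mean of at least 5 FPKM, 4 scalings, no mitochondrially encoded genes, only the 2 groups compared, plain limma, a replicate block and each library left out), 19 for BAX, CASP8 and CASP9, which fall under 5 FPKM, the calls of CASP6 against SCNT in both groups and of MDM2, GADD45A and DIABLO in IVF against SCNT did not change. Where a call changed, the cause was not tested.

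In KDM4E-SCNT against SCNT, MDM2 was not called after median-ratio scaling (0.60), upper-quartile scaling (0.72) or quantile normalization (0.76), and BAX was not called after quantile normalization (1.18). GADD45A was not called there with a pseudocount of 0.1 (-0.94), without a filter, with only the 2 groups or in plain limma (-0.93 each), with each library rescaled to 1 total (-0.83), after quantile normalization (-0.87) or without mitochondrially encoded genes (-0.79). In KDM4E-SCNT against IVF, GADD45A was not called without a filter, with only the 2 groups or in plain limma (1.25 each), with 1 total (1.16), or after median-ratio (1.22), upper-quartile (1.17) or quantile (1.23) scaling, and DIABLO was not called without a filter (2.68). CASP9 became called in IVF against SCNT with pseudocounts of 0.1 (-2.92) and 0.5 (-1.57), after median-ratio (-1.18), upper-quartile (-1.15) and quantile (-1.25) scaling and with only the 2 groups (-1.04).

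Leaving out each library in turn gave, for KDM4E-SCNT against SCNT, 0.97 to 1.14 for MDM2, -1.31 to -0.54 for GADD45A, 1.31 to 1.75 for BAX, -1.77 to -0.32 for DIABLO, -1.09 to 0.69 for CASP9, -0.57 to 0.041 for BCL2L11 and 1553 to 5242 features called (3227 without SCNT replicate 1, 1553 without KDM4E-SCNT replicate 2). For IVF against SCNT it gave 1.04 to 1.62 for BAX and -1.21 to -0.86 for CASP9. For KDM4E-SCNT against IVF it gave 0.87 to 1.64 for GADD45A, -0.11 to 0.47 for BAX, 1.96 to 3.41 for DIABLO, -0.70 to 0.087 for CASP6, -0.048 to 1.74 for CASP9 and 298 to 1301 features called, 298 without KDM4E-SCNT replicate 1. A lone KDM4E-SCNT library was assumed to vary like the other groups. Pathway genes called higher and lower ranged from 5 to 21 and 3 to 17 in KDM4E-SCNT against SCNT (p53 targets from 1 to 8 and 0 to 4), and from 0 to 8 and 0 to 2 in KDM4E-SCNT against IVF.

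Of the pathway genes, 11 were called higher in KDM4E-SCNT than in SCNT after median-ratio scaling and 13 after quantile normalization. Against IVF, 3 were higher without a filter and 3 with only the 2 groups, and 1 was lower with a mean of at least 5 FPKM and 1 after quantile normalization. Over all features, 5505 were called in IVF against SCNT with a mean of at least 5 FPKM and 541 in KDM4E-SCNT against IVF with only the 2 groups. RIPK1, not called in KDM4E-SCNT against SCNT, was at -0.18 after median-ratio and -0.059 after upper-quartile scaling.

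The replicate numbers were not taken to pair the samples, since the labels do not tie them to a shared batch. Same-numbered libraries deviated together with r of 0.03 to 0.09 over the 3 pairs of IVF and SCNT. There, 4 of 6 libraries correlated best with their own number. The r was 0.0065 to 0.12 over the 2 pairs of KDM4E-SCNT and SCNT (3 of 4 libraries). It was 0.03 to 0.07 over the 2 pairs of KDM4E-SCNT and IVF (3 of 4). With only 2 libraries, the deviations within KDM4E-SCNT are mirror images of each other. Its 2 pairs are therefore not separate observations, and the 3 of 4 cannot tell whether the numbers pair the samples. With the replicate block, KDM4E-SCNT against SCNT had 4252 features called, MDM2 at 1.04 and GADD45A at -0.98 (neither called), and GADD45A was at 1.198 against IVF (not called). The absence of counts leaves the precision of low values, those of BAX, CASP8 and CASP9 among them, unknown.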
